A study of Mus musculus with 6 samples.

Results

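The genes of 5 checkpoint or costimulatory ligands (Cd274, Pdcd1lg2, Cd80, Cd86 and Lgals9) and of 5 receptors (Pdcd1, Cd28, Ctla4, Havcr2 and Lag3) were followed across the leukocytes of a mouse brain tumor and the blood neutrophils of mice that bore it. They were chosen by symbol, and each of the 10 symbols was found once among the 32285 genes of all 6 libraries. The libraries were droplet-based 3′ single-cell RNA sequencing, which counts unique molecular identifiers (UMIs, one per captured RNA molecule) for each cell. SB28 is a mouse glioma cell line. Mice received 10000 SB28 cells and were examined on day 18. In 3 groups of 2 libraries each, the study profiled neutrophils sorted by flow cytometry from the brain tumor (CD11b+ leukocytes with high LY6G and low or no LY6C), all tumor cells carrying the leukocyte surface protein CD45, and neutrophils sorted from blood through the same gate. The blood donors carried the same tumor, so no group came from tumor-free mice. Blood was drawn before the vessels were flushed and the tumor taken out, so tissue and handling cannot be told apart. Strain, genotype, sex and age were not given in the labels, and the tumor was a single transplanted line. Whether the numbered libraries of a group were made from different mice is not stated. Each p-value here therefore rests on the spread between libraries alone, in part pooled over genes, and this spread may be technical.

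T cells need a signal through their antigen receptor and a second one through CD28, which binds the B7 proteins CD80 and CD86 on antigen-presenting cells. CTLA-4 binds the same B7 proteins more tightly than CD28 and restrains the response, and PD-1 (from Pdcd1) restrains it after binding PD-L1 (from Cd274) or PD-L2 (from Pdcd1lg2). TIM-3 (from Havcr2) and LAG-3 are further inhibitory receptors of activated T cells. Galectin-9, the product of Lgals9, is a sugar-binding protein that has been described as a TIM-3 ligand. Macrophages, microglia (the resident macrophages of the brain) and dendritic cells display the ligands, and interferon-gamma and hypoxia are known inducers of Cd274.

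On the mm10 build and in the GENCODE annotation, Cd274 (chr19:29367455-29388095, plus strand) and Pdcd1lg2 (chr19:29410919-29471161, plus strand) are neighbours with 22823 bases between them. Cd28 (chr1:60716800-60773359, plus strand) and Ctla4 (chr1:60887000-60915832, plus strand) lie 113640 bases apart, and Pdcd1 (chr1:94038305-94052553, minus strand) is on the same chromosome. Cd80 (chr16:38455561-38496335, plus strand) and Cd86 (chr16:36603869-36666081, minus strand) share a chromosome, with 1789479 bases between them. Lgals9 (chr11:78962974-78984946, minus strand), Havcr2 (chr11:46454935-46481255, plus strand) and Lag3 (chr6:124904361-124911705, minus strand) complete the set.

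The promoters of 7 of the 10 genes matched a RefSeq table on GRCm38.p6, the assembly that mm10 names; Cd86, Cd28 and Lag3 are named only. Each window runs from 250 bases before to 50 bases after the RefSeq start of the gene. Both strands were searched for the core of the hypoxia response element (ACGTG or GCGTG), the interferon-stimulated response element (GAAA, any 2 bases, then GAAA) and the gamma-activated site (TTCNNNGAA), and no match in the windows found here overlapped another. Of 32851 promoters of this length, 43.8% held the first, 3.44% the second and 8.30% the third. The Cd274, Pdcd1lg2 and Lgals9 windows are shown because the first pair are the neighbouring PD-1 ligand genes that were higher in tumor than in blood neutrophils, while Lgals9 did not pass the test there. Capitals mark matches, on either strand.
Cd274, chr19:29367188-29367487, plus strand: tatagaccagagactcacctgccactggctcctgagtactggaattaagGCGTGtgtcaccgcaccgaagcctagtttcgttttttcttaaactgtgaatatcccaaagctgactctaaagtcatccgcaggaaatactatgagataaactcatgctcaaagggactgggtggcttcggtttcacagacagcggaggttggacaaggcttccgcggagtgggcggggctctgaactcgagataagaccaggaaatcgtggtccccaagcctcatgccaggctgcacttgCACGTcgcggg
Pdcd1lg2, chr19:29410669-29410968, plus strand: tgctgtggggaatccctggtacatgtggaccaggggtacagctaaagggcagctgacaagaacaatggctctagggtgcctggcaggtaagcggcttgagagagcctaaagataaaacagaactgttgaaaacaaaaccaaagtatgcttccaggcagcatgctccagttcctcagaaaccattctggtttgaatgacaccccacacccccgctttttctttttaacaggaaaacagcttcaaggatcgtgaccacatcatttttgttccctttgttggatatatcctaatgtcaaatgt
Lgals9, chr11:78984875-78985174, minus strand: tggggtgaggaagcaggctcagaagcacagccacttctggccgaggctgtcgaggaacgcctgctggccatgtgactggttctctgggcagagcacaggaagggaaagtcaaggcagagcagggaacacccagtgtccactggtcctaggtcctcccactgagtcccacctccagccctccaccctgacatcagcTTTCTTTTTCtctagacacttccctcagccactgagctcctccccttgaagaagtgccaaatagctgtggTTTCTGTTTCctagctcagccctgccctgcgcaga
The Cd274 window held 2 hypoxia response element cores, starting at positions -201 and 40 relative to the start of the gene. The Lgals9 window held 2 interferon-stimulated response elements, at -55 and 16. The Pdcd1lg2 window held none of the searched letters, as did those of Cd80 and Pdcd1, while Ctla4 had 2 hypoxia response element cores and Havcr2 had 1. These matches describe letters only.

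Cells were assigned to classes by UMIs of marker genes that excluded the 10 genes followed here. Neutrophils numbered 3663 and 5979 in sorted tumor, 585 and 760 in CD45+ and 3079 and 5138 in blood libraries. The CD45+ libraries also held 3334 and 3320 macrophages, 280 and 382 microglia, 464 and 568 dendritic cells, 273 and 140 T cells and 101 and 69 natural killer (NK) cells. In each library at least 10 CPM (the usual counts-per-million scale, within the UMIs of the class) was reached by all 11 neutrophil, 11 macrophage, 10 microglia, 10 T cell and 8 NK cell markers in its own class. The same held for all 6 markers of type 1 and 7 of type 2 dendritic cells. Mature dendritic cells reached it for all 8 markers in CD45+ library 1 and for 7 of 8 in library 2. Libraries ranged from 13945799 to 129422458 UMIs, and the median depth per neutrophil was 3810 and 3860 UMIs in sorted tumor, 1623 and 2502 in CD45+ and 4253 and 4018 in blood libraries. CD45+ library 1 and sorted tumor library 2 shared 162 barcodes, against 3 to 35 for other pairs; their median depth was 740 UMIs in CD45+ library 1 and 27892 in sorted tumor library 2. Leaving out all shared barcodes moved no log2 fold change of these genes by more than 0.27, and the single call it changed was that of Cd274 in T cells over NK cells. RNA of phagocytes was found in other cells: at least 1 UMI of 6 phagocyte genes (C1qa, C1qb, C1qc, Ms4a7, Pf4 and Arg1) occurred in 27.6% and 29.8% of sorted tumor neutrophils, 39.8% and 64.2% of CD45+ neutrophils and 0.487% and 1.65% of blood neutrophils.

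The ligands of PD-1 separated tumor neutrophils from blood neutrophils. Cd274 stood at 721 and 661 CPM in sorted tumor neutrophils, against 28.1 and 35.2 CPM in blood neutrophils, a log2 fold change of 4.69 ± 0.15 (SE) with an adjusted p of 4.54e-07 in edgeR's quasi-likelihood test (Benjamini-Hochberg adjustment over all 13062 genes tested). Pdcd1lg2 stood at 97.0 and 98.3 CPM in sorted tumor neutrophils, against 2.79 and 4.15 CPM in blood neutrophils (log2 fold change 5.04 ± 0.19, adjusted p = 8.15e-07). For both genes the tumor libraries lay far above the blood libraries with no overlap. Counted per cell, neutrophils carried 2.92 and 2.72 Cd274 UMIs in sorted tumor and 0.121 and 0.140 in blood. With each cell thinned to 1000 UMIs, 32.9% and 32.0% of sorted tumor neutrophils and 2.38% and 3.30% of blood neutrophils had a Cd274 UMI (50.6% and 52.2% against 8.02% and 8.88% without thinning). The thinned shares for Pdcd1lg2 were 8.75% and 8.56% in sorted tumor and 0.409% and 0.302% in blood neutrophils.

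The B7 genes were also higher in sorted tumor neutrophils, Cd80 by more than Cd86. Cd80 stood at 694 and 656 CPM in sorted tumor neutrophils, against 166 and 163 CPM in blood neutrophils (log2 fold change 2.28 ± 0.12, adjusted p = 3.24e-06 in edgeR's test). At 1000 UMIs, 40.5% and 38.8% of sorted tumor neutrophils had a Cd80 UMI, against 13.4% and 13.9% of blood neutrophils, so Cd80 was already detected in many blood neutrophils. Cd86 stood at 50.7 and 39.8 CPM in sorted tumor neutrophils and 29.2 and 25.1 CPM in blood neutrophils (0.98 ± 0.15, adjusted p = 6.6e-04). Its share of cells with a UMI overlapped between the groups, at 2.83% and 2.38% in sorted tumor and 2.96% and 2.07% in blood neutrophils, so no order was read from the shares. Sorted tumor neutrophils with phagocyte UMIs held 64.7 and 53.7 CPM of Cd86, against 44.1 and 32.9 CPM in those without. Among neutrophils without phagocyte UMIs, the log2 fold change over blood was 0.78 (adjusted p = 0.00253 in edgeR's test). Summing every cell of the sorted libraries with no gate raised the Cd86 value to 2.84.

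Lgals9 was the ligand gene without a call in neutrophils. It stood at 106 and 107 CPM in sorted tumor neutrophils and 113 and 121 CPM in blood neutrophils, with a log2 fold change of 0.11 ± 0.11 (adjusted p = 0.407 in edgeR's test) that became -0.14 when sums were scaled by their totals only.

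Among receptor genes, Havcr2 was called higher in tumor neutrophils, while Pdcd1 and Ctla4 were too low to test. Havcr2 stood at 65.0 and 47.5 CPM in sorted tumor neutrophils, against 2.03 and 1.32 CPM in blood neutrophils (log2 fold change 5.35 ± 0.24, adjusted p = 1.41e-06). Neutrophils without phagocyte UMIs held 61.0 and 44.8 CPM in the sorted tumor libraries, so the level was close to that of all gated cells. Cd28 counts were 12 and 87 in sorted tumor, against 0 in either library of blood neutrophils, at least 28.2-fold higher if blood is set to a group floor of 3 counts (adjusted p = 0.00285), and 0.218% and 0.602% of sorted tumor neutrophils had a Cd28 UMI without thinning. Without sorted tumor library 2, which held 87 of these counts, Cd28 fell below the count filter. Lag3 counts were 16 and 24 in sorted tumor, against 0 and 4 in blood neutrophils (log2 fold change 3.31 ± 0.70, adjusted p = 0.00397); it was 2.60 without blood library 1, and blood library 1 alone has 0 counts. In sorted tumor neutrophils without phagocyte UMIs, Lag3 fell below the count filter. Pdcd1 counts were 0 and 1 in sorted tumor, against 0 in blood neutrophils, and Ctla4 counts were 5 and 8 in sorted tumor, against 7 and 29 in blood neutrophils. Of the 8 genes tested, 7 were called higher and 0 lower, against 30.7% higher and 29.5% lower of all genes tested. Their median log2 fold change was 4.0 and that of all genes 0.00, but genes that pass the filter through the tumor libraries alone had to differ.

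Neutrophils of the CD45+ libraries, which had not passed the neutrophil sort, were also higher than blood neutrophils in Cd274, Pdcd1lg2, Cd80, Cd86 and Havcr2. Cd274 stood at 605 and 594 CPM in CD45+ neutrophils, and its log2 fold change from the same blood libraries was 4.17 ± 0.18 (adjusted p = 1.43e-04 in edgeR's test). Pdcd1lg2 stood at 65.2 and 72.0 CPM (4.23 ± 0.25, adjusted p = 2.07e-04) and Cd80 at 881 and 818 CPM (2.29 ± 0.14, adjusted p = 2.36e-04). Cd86 stood at 268 and 163 CPM (2.89 ± 0.23, adjusted p = 3.81e-04). CD45+ neutrophils with phagocyte UMIs held 419.6 and 195 CPM of Cd86, against 121 and 88.2 CPM in those without, and without them the log2 fold change was 1.95 (adjusted p = 5.73e-04). Havcr2 stood at 84.5 and 40.3 CPM (5.11 ± 0.39, adjusted p = 3.72e-04). Lgals9, at 81.9 and 126 CPM, was not called (-0.21 ± 0.26, adjusted p = 0.529); its value was 0.12 without CD45+ library 1 and -0.74 (adjusted p = 0.00582) without CD45+ library 2. Ctla4, at 4.40 and 1.92 CPM, was not called either (1.44, adjusted p = 0.152). Pdcd1 (2 and 0 counts), Cd28 (1 and 3 counts) and Lag3 (2 and 0 counts) were too low to test. Of 7 genes tested, 5 were called higher and 0 lower, against 25.2% higher and 24.9% lower of all genes tested. This and all later comparisons with blood neutrophils share the same 2 blood libraries.

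**Figure D1:**
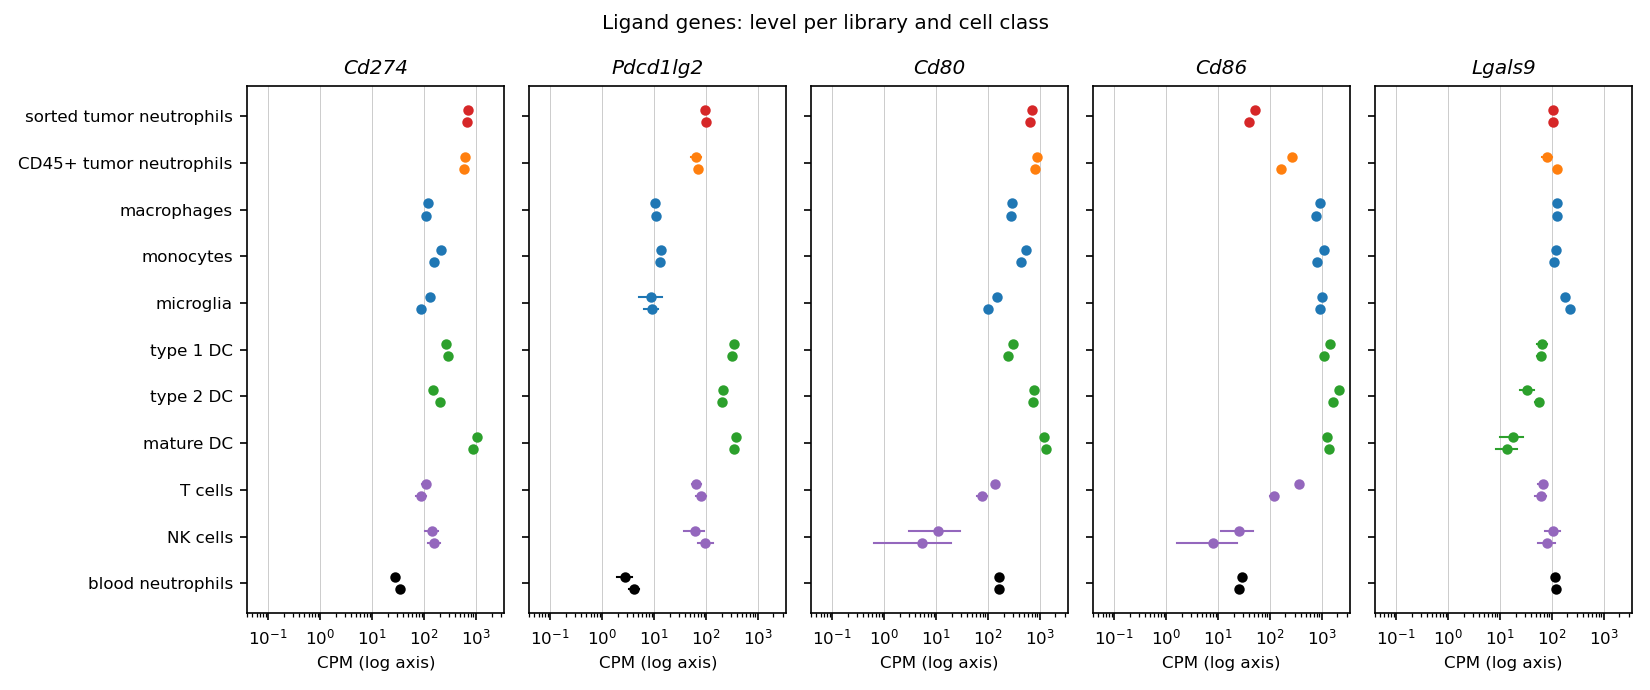
Level of each ligand gene (CPM, log axis) in each class of cells, with 1 dot per library, exact 95% Poisson intervals of the counts as lines, and open triangles for 0 counts. Cd274 and Pdcd1lg2 are highest in mature dendritic cells and lowest in blood neutrophils, and both tumor neutrophil groups lie above macrophages and microglia for Cd274, Pdcd1lg2 and Cd80.

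Tumor macrophages were far above blood neutrophils in Cd86 and less so in the PD-1 ligand genes. Cd86 stood at 926 and 779.8 CPM in macrophages, against 29.2 and 25.1 CPM in blood neutrophils (log2 fold change 4.57 ± 0.15, adjusted p = 6.3e-05 in edgeR's test). Cd274 stood at 121 and 109 CPM (1.45 ± 0.15, adjusted p = 7.23e-04) and Pdcd1lg2 at 10.4 and 11 CPM (1.21 ± 0.26, adjusted p = 0.0102), all above blood neutrophils. Cd80, at 290.2 and 282 CPM, was called higher by a small margin (0.40 ± 0.09, adjusted p = 0.0133). That call was lost with DESeq2 (adjusted p = 0.0806), with its size factors in edgeR (0.0869), without CD45+ library 2 (0.156) and without blood library 1 (0.0670) or 2 (0.0732). Lgals9, at 125 and 127 CPM in macrophages, was not called (-0.29 ± 0.10, adjusted p = 0.0522); it was 0.11 with totals only and called lower with DESeq2 (-0.44, adjusted p = 0.00397). Havcr2 stood at 106 and 88.3 CPM (5.49 ± 0.22, adjusted p = 7.5e-05). Lag3 stood at 4.90 and 5.97 CPM, against 0 and 0.195 CPM in blood neutrophils (5.13 ± 0.77, adjusted p = 0.00275; 4.40 without blood library 1). Ctla4 stood at 18.1 and 8.52 CPM in macrophages, against 0.527 and 1.42 CPM in blood neutrophils (3.28 ± 0.58, adjusted p = 0.00485); it was 2.65 without CD45+ library 1 and 4.26 without blood library 2. Pdcd1 (136 and 115 counts) and Cd28 (253 and 165 counts) were at least 26.9-fold and 44.9-fold above the floor in blood neutrophils. The sorted tumor libraries held only 4 and 0 T cells. Their 97 and 115 macrophages had 1 and 0 counts of Ctla4, 0 and 2 of Pdcd1 and 2 and 3 of Cd28. Whether RNA of T cells added to the levels of these 3 genes in CD45+ phagocytes was not tested. Of the 10 genes tested, 9 were called higher and 0 lower, against 42.9% higher and 33.0% lower of all genes tested. Pdcd1, Cd28 and Lag3, at 0 to 4 counts in blood neutrophils, passed the filter through macrophages alone and had to differ, so the count is a description.

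Set against CD45+ neutrophils of the same libraries, macrophages had lower CPM of 3 ligand genes and higher CPM of Cd86. The log2 fold change of macrophages over neutrophils was -2.73 ± 0.14 for Cd274 (adjusted p = 5.33e-82 in edgeR's test), -3.02 ± 0.21 for Pdcd1lg2 (adjusted p = 1.27e-43), -1.91 ± 0.13 for Cd80 (adjusted p = 3.69e-46) and 1.68 ± 0.14 for Cd86 (adjusted p = 1.16e-33). These p-values, like those of every comparison within the CD45+ libraries below, rest on 1 residual degree of freedom and on a spread pooled over genes. Their size therefore says little beyond the call. Macrophages had a median of 10182 and 17509 UMIs per cell, against 1623 and 2502 in CD45+ neutrophils. The order of Cd274, Pdcd1lg2 and Cd80 did not hold when UMIs were counted per cell. Pdcd1lg2 averaged 0.170 (SD 0.0679) UMIs per cell in macrophages and 0.162 (SD 0.0502) in CD45+ neutrophils. Macrophages carried 1.42 and 2.15 Cd274 UMIs per cell, against 1.17 and 1.63 in CD45+ neutrophils, ranges that overlap. For Cd80 they carried 3.41 and 5.57 UMIs per cell, against 1.71 and 2.24 in CD45+ neutrophils. Of 10 genes tested, 4 were called higher and 3 lower, against 32.9% higher and 23.4% lower of all genes tested. Lag3 would not have passed the count filter on neutrophils alone. Ctla4 (1.75 ± 0.51), Havcr2 (0.39 ± 0.17) and Lag3 were called higher, but not without the library as a block (adjusted p = 0.0583, 0.405 and 0.0915) or with DESeq2 (0.0904, 0.701 and 0.137). The counted Lag3 ratio was 8.97 (95% interval 2.47 to 74.2), as neutrophils had 2 and 0 counts, and without CD45+ library 2 the log2 fold change was 1.17. Lgals9 (-0.06, adjusted p = 0.765), Cd28 (1.30, adjusted p = 0.158) and Pdcd1 (adjusted p = 0.200) were not called; Lgals9 was 0.29 with totals only.

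**Figure D2:**
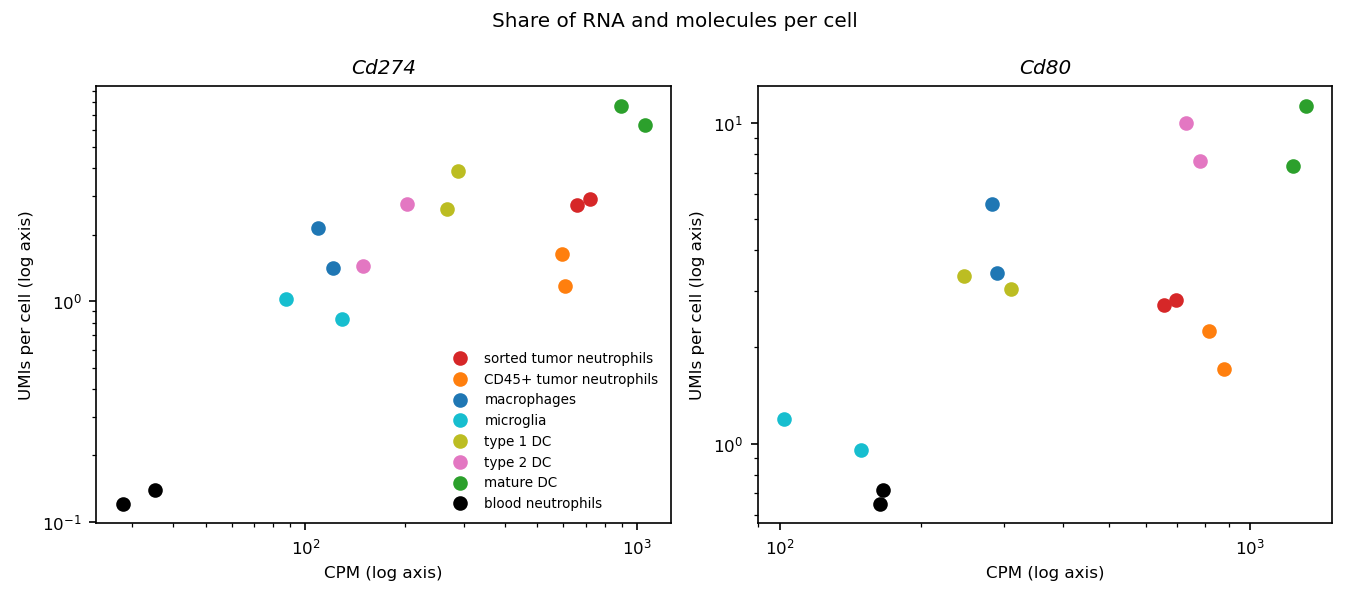
Cd274 and Cd80 in each class and library, as CPM against UMIs per cell (log axes). Tumor neutrophils lie above macrophages on the CPM axis for both genes. On the axis of UMIs per cell macrophages reach 1.42 and 2.15 for Cd274 and 3.41 and 5.57 for Cd80. Sorted tumor neutrophils, at means of 2.82 and 2.75 UMIs per cell, stay above macrophages for Cd274 and lie below them for Cd80.

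Microglia resembled macrophages in Cd86 and held the highest Lgals9. Cd86 stood at 1006 and 924 CPM in microglia, against 29.2 and 25.1 CPM in blood neutrophils (log2 fold change 4.33 ± 0.16, adjusted p = 2.13e-05 in edgeR's test). Cd274, at 129 and 87.3 CPM, was called higher (0.93 ± 0.21, adjusted p = 0.00770), but not with a stricter gate (adjusted p = 0.153) or without blood library 1 (0.0585). Pdcd1lg2, at 8.92 and 8.98 CPM, was not called (0.55 ± 0.34, adjusted p = 0.189). Cd80 stood at 149 and 102 CPM in microglia and 166 and 163 CPM in blood neutrophils. It was called lower (-1.23 ± 0.17, adjusted p = 0.00127), but scaled by totals only it was -0.40 (adjusted p = 0.120), and microglia carried more Cd80 UMIs per cell, 0.954 and 1.19 against 0.717 and 0.65 in blood neutrophils. Lgals9 stood at 177 and 225 CPM in microglia, the highest level of any class, against 113 and 121 CPM in blood neutrophils. Its fold change was -0.03 ± 0.18 (adjusted p = 0.903) but 0.78 (adjusted p = 0.00607) with totals only and -0.35 (adjusted p = 0.0493) without CD45+ library 2. Havcr2 stood at 178 and 162 CPM (5.87 ± 0.23, adjusted p = 2.15e-05). Ctla4 stood at 31.2 and 18.0 CPM (3.71, or 4.61 without blood library 2). Pdcd1, at 21.2 and 7.41 CPM, and Cd28, at 17.8 and 3.37 CPM, were at least 128-fold and 84.6-fold above the floor in blood neutrophils. In microglia of the sorted tumor libraries, Ctla4 stood at 9.73 and 0.694 CPM, Pdcd1 at 3.71 and 2.43 CPM and Cd28 at 8.81 and 0.694 CPM. Of 10 genes tested, 7 were called higher and 1 lower, against 38.5% higher and 35.6% lower of all genes tested. Pdcd1, Cd28 and Lag3 again had to differ, and Ctla4 would not have passed the filter on blood neutrophils alone.

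Against CD45+ neutrophils of the same libraries, microglia were lower in Cd274 (log2 fold change -3.23 ± 0.21), Pdcd1lg2 (-3.68 ± 0.28) and Cd80 (-3.52 ± 0.21) and higher in Cd86 (1.48 ± 0.20), with adjusted p-values of 2.9e-49, 3.31e-37, 1.31e-58 and 1.05e-12 in edgeR's test. Per cell, microglia carried 0.829 and 1.02 Cd274 UMIs, against 1.17 and 1.63 in CD45+ neutrophils, and 0.954 and 1.19 Cd80 UMIs, against 1.71 and 2.24. In this comparison 5 of 9 genes tested were called higher and 3 lower, against 31.6% higher and 29.7% lower of all genes tested. Pdcd1, Ctla4 and Lag3 passed the count filter through microglia alone and had to differ. Lgals9 was not called (0.23, adjusted p = 0.344), except with totals only (0.96, adjusted p = 1.5e-04). Ctla4 was called higher in microglia (2.28 ± 0.50, adjusted p = 1.49e-05; 0.0553 with DESeq2), and Havcr2 was called higher (0.82 ± 0.22, adjusted p = 4.31e-04) but not without the library as a block (0.0837) or with DESeq2 (0.104). For Pdcd1 the counted ratio was 18.3 (95% interval 4.88 to 154; adjusted p = 0.0529 with DESeq2), with a log2 fold change of 2.80 in CD45+ library 1 and 0 neutrophil counts in library 2. Cd28 had 32 and 15 counts in microglia and 1 and 3 in CD45+ neutrophils and was not tested.

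Dendritic cells, which prime T cells, were high in 4 of the 5 ligand genes and low in the CPM of Lgals9. Cd86 stood at 1686 and 1475 CPM in dendritic cells (log2 fold change from blood neutrophils 5.18 ± 0.17, adjusted p = 4.09e-06 in edgeR's test). Cd80 stood at 759 and 728 CPM (1.49 ± 0.12, adjusted p = 7.08e-05), Cd274 at 421 and 391 CPM (2.99 ± 0.15, adjusted p = 1.12e-05) and Pdcd1lg2 at 311 and 274 CPM (5.67 ± 0.21, adjusted p = 4.57e-06). Lgals9 was lower than in blood neutrophils, at 38.9 and 49.8 CPM against 113 and 121 CPM (-2.07 ± 0.17, adjusted p = 7.2e-05). Counted per cell it was close, at means of 0.464 UMIs in dendritic cells and 0.485 in blood neutrophils. Ctla4 stood at 35.6 and 50.7 CPM in dendritic cells (4.70 ± 0.42, adjusted p = 9.2e-05; 5.65 without blood library 2) and Lag3 at 6.82 and 4.86 CPM (4.83 ± 0.71, adjusted p = 9e-04; 4.11 without blood library 1). Pdcd1 and Cd28 were at least 323-fold and 24.1-fold above the floor in blood neutrophils. Of 10 genes tested, 9 were called higher and 1 lower, against 40.1% higher and 37.3% lower of all genes tested. The same 3 genes had to differ, and Ctla4 would not have passed the filter on blood neutrophils alone.

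Compared with CD45+ neutrophils of the same libraries, dendritic cells were higher in Pdcd1lg2 (1.44 ± 0.20, adjusted p = 1.59e-11) and Cd86 (2.29 ± 0.19, adjusted p = 1.43e-25) and lower in Cd274 (-1.19 ± 0.18, adjusted p = 4.87e-10) and Lgals9 (-1.86 ± 0.20, adjusted p = 1.8e-16). Cd80 was called lower too (-0.82 ± 0.18, adjusted p = 1.59e-05), though with totals only it was -0.19 (adjusted p = 0.315). Of 9 genes tested, 6 were called higher and 3 lower, against 32.0% higher and 30.5% lower of all genes tested. Pdcd1 and Lag3 passed the count filter through dendritic cells alone and had to differ, and Ctla4 would not have passed it on neutrophils alone. Havcr2 (1.79 ± 0.20, adjusted p = 7.61e-16) and Ctla4 (3.31 ± 0.42, adjusted p = 5.5e-13; 2.41 in CD45+ library 1 and 3.97 in library 2) were higher in dendritic cells. The counted ratio was 46.1 (95% interval 12.7 to 383) for Pdcd1, with a log2 fold change of 2.89 in CD45+ library 1 and 0 neutrophil counts in library 2, and 8.99 (2.38 to 75.9) for Lag3, which was not called without the library as a block (adjusted p = 0.0858) or with DESeq2 (0.249). Cd28, at 11 and 12 counts in dendritic cells and 1 and 3 in CD45+ neutrophils, was not tested. Per cell, dendritic cells carried more Cd274, 3.59 and 4.68 UMIs against 1.17 and 1.63 in CD45+ neutrophils. Cd80 averaged 7.58 UMIs per dendritic cell, against 1.98 per CD45+ neutrophil. The means for Lgals9 were 0.464 (SD 0.186) and 0.252 (SD 0.132), so none of the 3 genes called lower was lower per cell.

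The types of dendritic cell differed in their ligands, described here without a test. Mature dendritic cells, which express Ccr7 and Fscn1, held 1055 and 896 CPM of Cd274. Type 1 cells, which cross-present antigen, held 268 and 288 CPM, and type 2 cells held 149 and 202 CPM. Mature cells also led in Cd80, at 1231 and 1312 CPM, against 309.9 and 246 CPM in type 1 and 782 and 731 CPM in type 2. Pdcd1lg2 was closer among the types, at 386 and 353 CPM in mature, 341 and 323 CPM in type 1 and 217 and 203 CPM in type 2 cells. Cd86 had another order, with 2128 and 1661 CPM in type 2 cells above 1425 and 1119 CPM in type 1 and 1239 and 1355 CPM in mature cells. Lgals9 was at 17.6 and 13.7 CPM in mature cells and 65.1 and 62.3 CPM in type 1 cells.

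Over all 13 classes, the order of Cd274 was mature dendritic cells, sorted tumor neutrophils, CD45+ neutrophils and type 1 dendritic cells, at mean levels of 976, 691, 599.5 and 278 CPM, each range apart from the next. Monocytes, B cells, type 2 dendritic cells, NK cells, CD4 T cells, macrophages, microglia and CD8 T cells followed, between 184 and 88.2 CPM, and each of these neighbours overlapped. Blood neutrophils were last and apart, at 31.7 CPM. For Cd80 the order began with mature dendritic cells (1272 CPM), CD45+ neutrophils (849.5 CPM), type 2 dendritic cells (756 CPM) and sorted tumor neutrophils (675 CPM), each range apart, and ended with NK cells (8.25 CPM). For Cd86 it was led by type 2 dendritic cells (1894 CPM), while tumor and blood neutrophils and NK cells held the last 4 places.

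**Figure D3:**
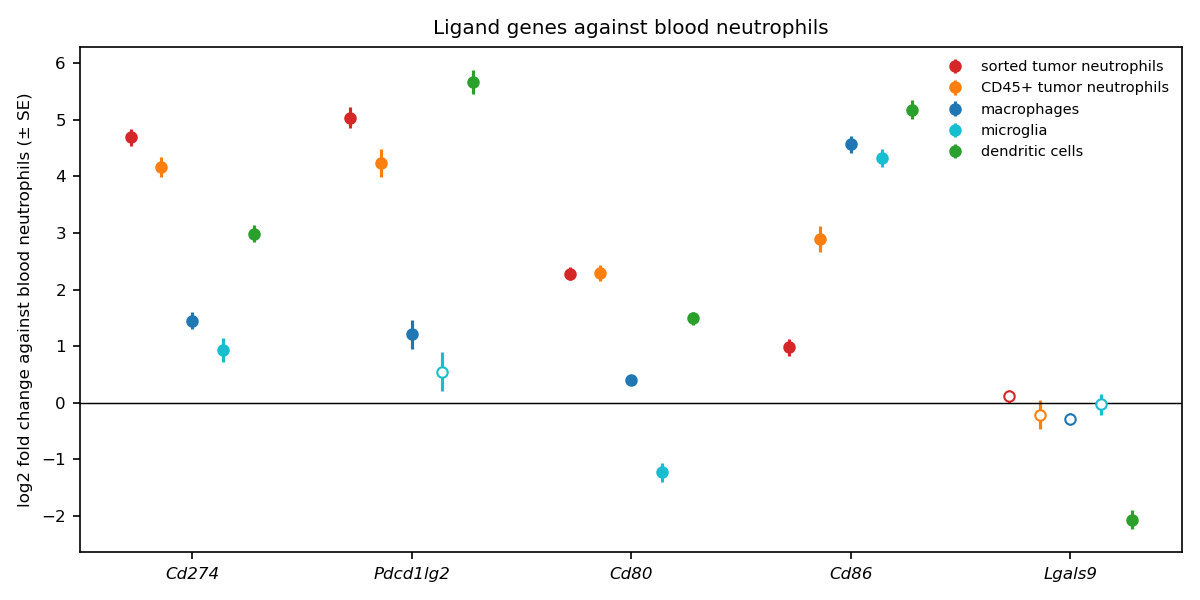
Log2 fold change with SE of each ligand gene in each tumor class over blood neutrophils, from edgeR's quasi-likelihood fit. Filled points have an adjusted p under 0.05 and open points do not; Cd274 is furthest from 0 in sorted tumor neutrophils (4.69) and Cd86 in dendritic cells (5.18), while Lgals9 lies near or below 0 in every class shown (with totals only it is 0.78 in microglia).

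Within tumor neutrophils, Pdcd1lg2 was found more often in cells with a Cd274 UMI, and Cd80 was not. At 1000 UMIs per cell, Pdcd1lg2 was detected in 14.6% and 15.3% of sorted tumor neutrophils with a Cd274 UMI, against 5.86% and 5.40% of those without. In CD45+ neutrophils it was 14.9% and 10.9% with a Cd274 UMI, against 3.69% and 4.45% without. In all 4 tumor libraries the share was thus higher beside Cd274. In blood neutrophils Pdcd1lg2 was found in 0% of the 70 and 153 cells with a Cd274 UMI, against 0.419% and 0.313% of those without. Cd80 was detected in 35.9% and 35.3% of sorted tumor neutrophils with a Cd274 UMI, against 42.8% and 40.4% of those without, and in 39.7% and 42.1% of CD45+ neutrophils with, against 51.2% and 45.7% without. The direction for Cd80 was the opposite in blood neutrophils, at 17.1% and 26.1% of the 70 and 153 cells with a Cd274 UMI, against 13.3% and 13.5% of those without. These shares describe cells of single libraries and carry no test.

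**Figure D4:**
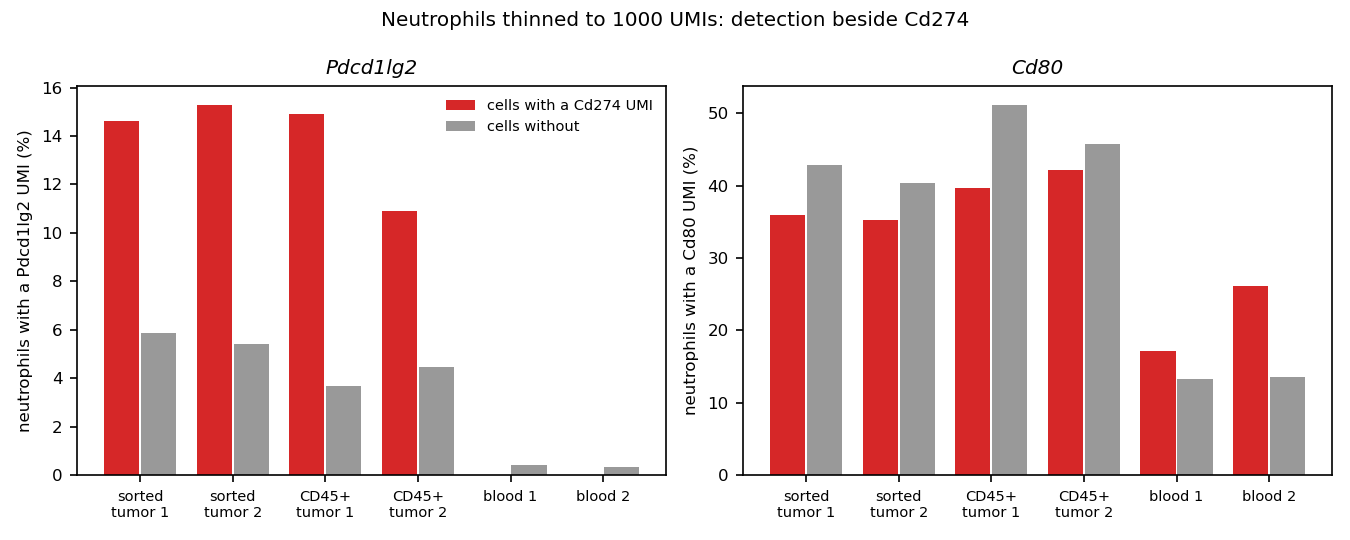
Percent of neutrophils with a UMI of Pdcd1lg2 or Cd80, among cells with and without a Cd274 UMI, with every cell thinned to 1000 UMIs and 1 pair of bars per library. Bars for Pdcd1lg2 are higher in cells with Cd274 in all 4 tumor libraries (10.9% to 15.3%, against 3.69% to 5.86%), while those for Cd80 are lower there. In the blood libraries the Cd80 bars are higher in cells with Cd274 (17.1% and 26.1%, against 13.3% and 13.5%).

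All 5 receptor genes were higher in tumor T cells than in blood neutrophils. Pdcd1 stood at 275 and 239 CPM in tumor T cells, against 0 in blood neutrophils, at least 2938-fold higher (adjusted p = 2.91e-06 in edgeR's test), and Cd28 stood at 431 and 301 CPM, at least 4279-fold higher (adjusted p = 4.68e-06). Ctla4 stood at 550.4 and 714 CPM in T cells, against 0.527 and 1.42 CPM in blood neutrophils (log2 fold change 8.20 ± 0.37, adjusted p = 4.97e-06). Without blood library 2, Ctla4 was 9.10. Lag3 stood at 86.7 and 92.5 CPM (8.39 ± 0.43, adjusted p = 6.66e-06; 7.68 without blood library 1) and Havcr2 at 155 and 136 CPM (5.45 ± 0.23, adjusted p = 3.96e-06). At 1000 UMIs, 25.5% and 21.4% of T cells had a Pdcd1 UMI and 35.8% and 42.9% a Ctla4 UMI; without thinning it was 61.2% and 60.0% for Pdcd1. At that depth a Pdcd1 UMI was found in 0.192% and 0% of CD45+ neutrophils of the same libraries and in 0 of 2937 and 0 of 4631 blood neutrophils, with exact upper limits of 0.126% and 0.0796%. Median depths were 4384 and 5908 UMIs in T cells, 1623 and 2502 in CD45+ neutrophils and 4253 and 4018 in blood neutrophils. Of 10 genes tested, 8 were called higher and 2 lower, against 35.3% higher and 37.5% lower of all genes tested. Pdcd1, Cd28 and Lag3 passed the filter through T cells alone and had to differ. Ctla4 and Havcr2 would not have passed it on blood neutrophils alone either, so no receptor call was free of the filter.

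Ligand genes were also counted in T cells, of which 61.5% and 74.3% carried phagocyte UMIs. Cd86, at 357 and 121 CPM in T cells, was called higher than in blood neutrophils (log2 fold change 2.12 ± 0.42, adjusted p = 0.00294; 1.22 without CD45+ library 1 and 1.26 in T cells without phagocyte UMIs). In T cells of CD45+ library 1 it was 431 CPM with phagocyte UMIs and 137 CPM without, and in library 2 it was 117 CPM with them and 136 CPM without. Cd80, at 135 and 77.9 CPM in T cells, was 164 and 92.5 CPM with phagocyte UMIs and 49.1 and 19.5 CPM without. It was called lower than in blood neutrophils (-1.64 ± 0.23, adjusted p = 5.42e-04; with totals only adjusted p = 0.0546). Ctla4 was lower with phagocyte UMIs in both libraries, at 508 and 695 CPM with them against 677 and 788 CPM without, as was Cd28, at 347 and 292 CPM with them against 679.8 and 336 CPM without. Lag3 was higher with them in both, at 90.2 and 97.4 CPM against 76.1 and 73.0 CPM without. The libraries differed in direction for Pdcd1, at 263 and 249.6 CPM with phagocyte UMIs against 312 and 195 CPM without, and for Havcr2, at 161 and 124 CPM with them against 139.9 and 185 CPM without. Cd274, at 108 and 88.6 CPM in T cells, was called higher (0.61 ± 0.17, adjusted p = 0.0145), a call lost in T cells without phagocyte UMIs (adjusted p = 0.434), with doublet removal (0.0562), with no count filter (0.0642) and without blood library 1 (0.200). Pdcd1lg2 was higher in T cells than in blood neutrophils (65.0 and 79.9 CPM, 3.31 ± 0.26) and Lgals9 lower (67.5 and 61.3 CPM, -1.89 ± 0.14).

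NK cells shared Cd28 and Ctla4 with T cells at lower levels and had almost none of the other receptors. Cd28 stood at 227 and 106 CPM in NK cells and 0 in blood neutrophils, at least 1854-fold higher (adjusted p = 4.97e-05 in edgeR's test). Ctla4 stood at 58.9 and 84.8 CPM (log2 fold change 5.12 ± 0.49, adjusted p = 1.52e-04; 6.11 without blood library 2). Pdcd1 had 0 and 1 counts, Lag3 4 and 3 counts and Havcr2 3 and 0 counts in NK cells; Havcr2 was not called (0.31 ± 1.07, adjusted p = 0.813), and the other pair fell below the count filter. Cd80 was lower in NK cells than in blood neutrophils, at 11.2 and 5.30 CPM against 166 and 163 CPM (-5.33 ± 0.28). Cd274, at 140.2 and 156 CPM, was higher (1.23 ± 0.19, adjusted p = 0.00137), as was Pdcd1lg2 at 61.7 and 98.0 CPM (3.51 ± 0.36). Cd86, at 25.2 and 7.95 CPM, and Lgals9, at 104 and 79.5 CPM, were called lower (-1.73 ± 0.41 and -1.36 ± 0.17), calls lost with totals only (adjusted p = 0.185 and 0.142). Without CD45+ library 1, Cd86 was -2.72. Of 8 genes tested, 4 were called higher and 3 lower, against 26.0% higher and 34.3% lower of all genes tested. Cd28 and Ctla4 passed the filter through NK cells alone and had to differ.

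Set directly against NK cells of the same libraries, T cells were higher in all 5 receptor genes. The counted ratio of T cells over NK cells was 192 (95% interval 34.3 to 7583) for Pdcd1 and 36.2 (12.3 to 176) for Havcr2, with adjusted p-values of 9.94e-13 and 1.83e-09 in edgeR's test. NK cells had no counts of Pdcd1 in CD45+ library 1 and of Havcr2 in library 2; in the other library the log2 fold change was 6.18 for Pdcd1 and 4.07 for Havcr2. Over both libraries it was 3.17 ± 0.41 for Lag3 (adjusted p = 5.08e-07), 3.10 ± 0.20 for Ctla4 (adjusted p = 2.11e-13) and 1.13 ± 0.19 for Cd28 (adjusted p = 3.94e-05). Cd28 lost its call without the library as a block (adjusted p = 0.0808). Cd80 (3.63 ± 0.42) and Cd86 (3.80 ± 0.32) were also higher in T cells, and NK cells carried phagocyte UMIs less often, in 43.6% and 65.2% of cells against 61.5% and 74.3% of T cells. Among cells without phagocyte UMIs, Cd86 was still higher in T cells (3.01, adjusted p = 6.71e-07) and Cd80 fell below the count filter. Cd274 was not called (-0.63 ± 0.23, adjusted p = 0.0531), but was called lower in T cells without shared barcodes (adjusted p = 0.0420) and among cells without phagocyte UMIs (-1.17, adjusted p = 0.0117). Pdcd1lg2 (-0.16, adjusted p = 0.772) and Lgals9 (-0.55, adjusted p = 0.157) were not called; Pdcd1lg2 was 0.16 among cells without phagocyte UMIs. Of 10 genes tested, of which Pdcd1 and Havcr2 were near 0 in NK cells, 7 were called higher and 0 lower, against 9.68% higher and 7.91% lower of all genes tested. Pdcd1, Havcr2, Lag3 and Cd80 passed the count filter through T cells alone and had to differ. Cd86 would not have passed it on NK cells alone.

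CD8 and CD4 T cells, split by UMIs of Cd8a or Cd8b1 and of Cd4, differed in Ctla4 and Lag3. Ctla4 stood at 304 and 396 CPM in the 125 and 64 CD8 T cells, against 969 and 1954 CPM in the 52 and 19 CD4 T cells (log2 fold change -1.88 ± 0.22, adjusted p = 1.33e-14 in edgeR's test; 0.0511 without the library as a block). Lag3 stood at 128 and 139.6 CPM in CD8 T cells, against 34.3 and 69.5 CPM in CD4 T cells (1.60 ± 0.42, adjusted p = 0.00394; 0.134 without the block and 0.355 with DESeq2). Both genes separated the groups without overlap in these libraries. Pdcd1 stood at 309 and 214 CPM in CD8 and 258 and 252 CPM in CD4 T cells (0.15, adjusted p = 0.889), and Cd28 at 443 and 253 CPM in CD8 and 439.6 and 495 CPM in CD4 T cells (-0.33, adjusted p = 0.620). Havcr2, at 188 and 156 CPM in CD8 and 155 and 191 CPM in CD4 T cells, was not called either (0.14, adjusted p = 0.915). No ligand gene was called: adjusted p was 0.442 for Cd274, 0.0829 for Pdcd1lg2, 0.768 for Cd80, 0.411 for Cd86 and 0.930 for Lgals9. All 10 genes were tested; 1 was called higher and 1 lower, against 4.11% higher and 3.46% lower of all genes tested. CD4 T cells with a Foxp3 UMI, the marker of regulatory T cells, held 1226 and 2919.9 CPM of Ctla4 (23 and 11 cells), and the 29 without one in CD45+ library 1 held 641 CPM.

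Single T cells often had UMIs of several inhibitory receptor genes at once. Of Pdcd1, Ctla4, Havcr2 and Lag3, at least 2 had a UMI in 74.4% and 82.8% of CD8 T cells, 65.4% and 73.7% of CD4 T cells, 2.97% and 0% of NK cells and 0.513% and 0% of CD45+ neutrophils. All 4 were found in 25.6% and 25% of CD8 T cells and in 7.69% and 15.8% of CD4 T cells. These shares were not thinned, and median depths ran from 1623 UMIs in neutrophils to 7180 in CD8 T cells. T cells with phagocyte UMIs, 61.5% and 74.3% of all T cells, were kept. Whether RNA of other cells added to these shares was not tested.

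**Figure D5:**
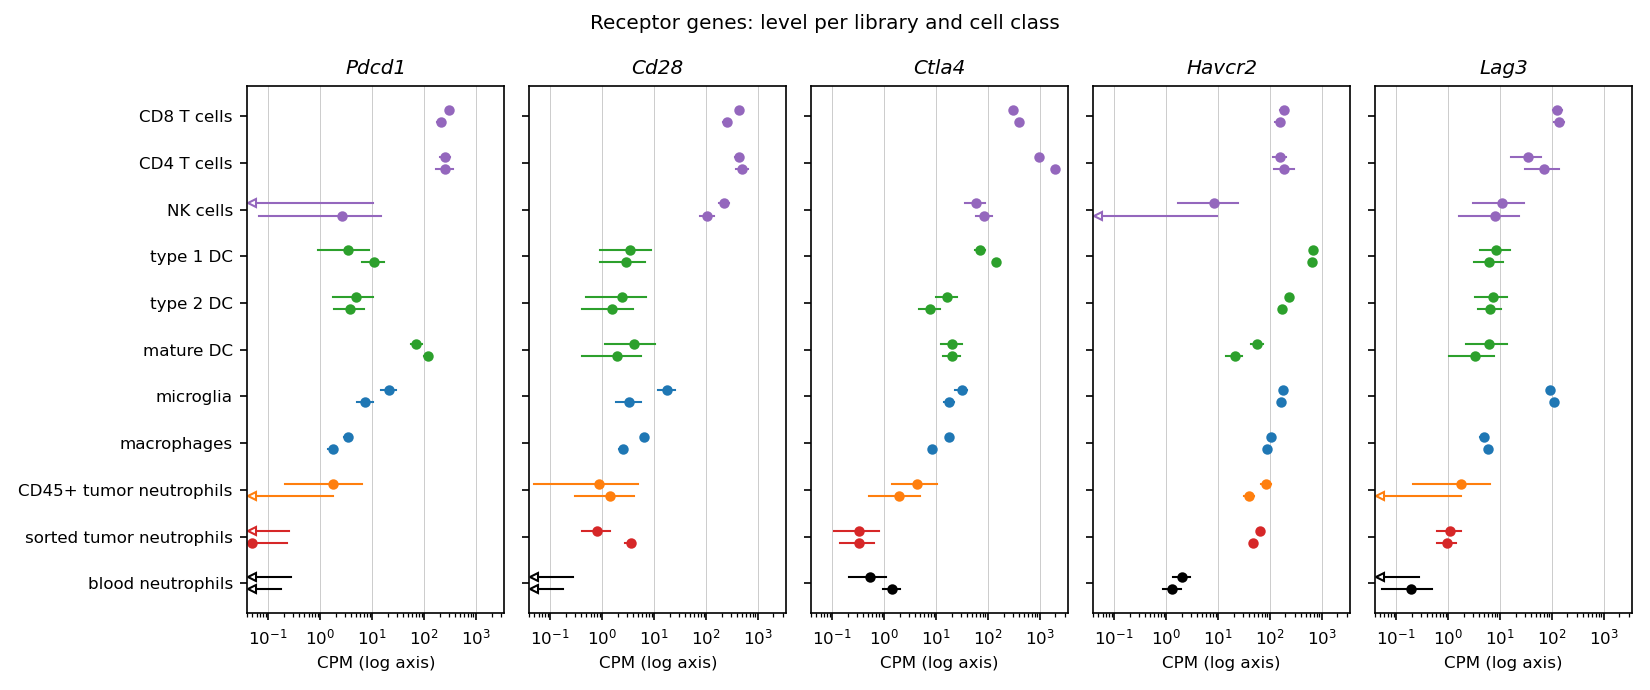
Level of each receptor gene (CPM, log axis) in each class of cells, with 1 dot per library, exact 95% Poisson intervals as lines, and open triangles for 0 counts. Pdcd1, Cd28 and Ctla4 are highest in T cells, Lag3 in CD8 T cells and microglia, and Havcr2 in type 1 dendritic cells.

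Outside T and NK cells, each receptor gene had its own pattern. Havcr2 was highest in type 1 dendritic cells, at 688 and 662 CPM, above 239 and 172 CPM in type 2 cells, and mature cells held 56.8 and 21.0 CPM. In all dendritic cells it stood at 352 and 281 CPM (log2 fold change from blood neutrophils 6.90 ± 0.23, adjusted p = 4.03e-06 in edgeR's test). Lag3 stood at 93.6 and 111 CPM in microglia, against 0 and 0.195 CPM in blood neutrophils (8.83 ± 0.47, adjusted p = 4.51e-05), and macrophages of the same libraries held 4.90 and 5.97 CPM. At 1000 UMIs, 8.20% and 12.2% of microglia and 0.503% and 0.577% of macrophages had a Lag3 UMI. The fold change over blood was 8.10 without blood library 1. Against CD45+ neutrophils, which had 2 and 0 counts, the counted ratio in microglia was 170.2 (95% interval 46.9 to 1408, adjusted p = 2.01e-38), and the log2 fold change was 4.93 in CD45+ library 1 alone. Microglia in the sorted tumor libraries, which came through a neutrophil sort, held Lag3 at 152 and 139 CPM. Without barcodes that libraries share, 70 of the 137 microglia of sorted tumor library 2 were left, at 153 CPM.

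Pdcd1 reached 71.3 and 119 CPM in mature dendritic cells, against 3.42 and 10.9 CPM in type 1 cells, and at 1000 UMIs 6.25% and 8.52% of mature cells had a Pdcd1 UMI. In all dendritic cells Pdcd1 stood at 20.5 and 33.4 CPM, at least 323-fold above the blood floor. Ctla4 reached 71.9 and 142 CPM in type 1 dendritic cells, above 20.7 and 20.3 CPM in mature and 16.1 and 7.63 CPM in type 2 cells. At 1000 UMIs 0.409% and 0.152% of macrophages had a Pdcd1 UMI, with exact intervals (0.218% to 0.698% and 0.0493% to 0.354%) that overlap those of CD45+ neutrophils (0.00487% to 1.07% and 0% to 0.515%). For Pdcd1, Cd28 and Ctla4 in microglia, CD45+ library 1 was above library 2 each time.

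By the correlation of log2(CPM + 1) over 24 sums of a class and a library, the genes most like each member were named among 11303 genes. Cd274 was closest to Traf6 (Pearson r = 0.85), Emd (0.84) and Traf1 (0.78), and Pdcd1lg2 to Pank2 (0.85), Elovl5 (0.84) and Traf1 (0.83). Cd80 was closest to Csf2rb (0.94), the shared receptor chain for GM-CSF, Gadd45b (0.89) and Csf2rb2 (0.89). Cd28 was closest to the T cell receptor gene Trbc2 (0.98), Icos (0.97) and Thy1 (0.97); Trbc2 and Thy1 were also markers of the T cell gate. Pdcd1 was closest to Tnfrsf4 (0.94), which encodes the costimulator OX40, and was also near Ikzf4 (0.90). Havcr2 was closest to Spint1 (0.93), Sh3pxd2b (0.90) and Dapk1 (0.90), and Ctla4 to Arl4a (0.91), Sh3rf1 (0.91) and Dusp10 (0.90). Lag3 was closest to Ldlrad4 (0.89), B3galt5 (0.88) and Klk8 (0.88), and Lgals9 to Pld1 (0.88), Klc4 (0.87) and Dusp6 (0.86). Cd86 was closest to the predicted gene Gm49662 (0.98), whose reads may be shared with it, then Plekho1 (0.91) and P2rx4 (0.90). Sums of a library share its depth and handling, and the values are descriptions.

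Among other ligands of the same kind, Pvr and Cd47 were higher and Ceacam1 lower in sorted tumor neutrophils. Of 20 listed checkpoint and costimulation ligands, 11 were tested and 3 were higher and 2 lower than in blood neutrophils, against 30.7% higher and 29.5% lower of all genes tested, so the count is not a result about the list. Pvr, a ligand of TIGIT, stood at 9.02 and 6.75 CPM in sorted tumor neutrophils, against 0.377 and 0.488 CPM in blood neutrophils (log2 fold change 4.37 ± 0.31). It passed the count filter through the tumor libraries alone. Cd47, which signals to phagocytes not to engulf a cell, stood at 745 and 946 CPM, against 304 and 317 CPM in blood neutrophils (1.70 ± 0.18), and Ceacam1 fell to 21.2 and 17.7 CPM, against 46.9 and 48.3 CPM in blood neutrophils (-1.05 ± 0.13). Of 18 other receptors, 11 were tested and 3 were higher and 7 lower, against the same 30.7% and 29.5%, with Tnfrsf9 (the costimulatory receptor CD137, 4.90 ± 0.41) and Lilrb4a (2.00 ± 0.15) higher and Cd244a (-2.48 ± 0.20) lower. Of 16 regulators of Cd274, all tested, 7 were higher and 5 lower, against 30.7% and 29.5% of all genes tested (median 0.46, against 0.00 for all genes). The leading ones were the interferon pathway inhibitors Socs1 (32.3 and 39.4 CPM in sorted tumor, 8.66 and 9.87 CPM in blood neutrophils, 2.21 ± 0.19) and Ptpn2 (152 and 141 CPM in sorted tumor, 38.8 and 38.3 CPM in blood neutrophils, 2.17 ± 0.11), and the NF-kB subunit gene Nfkb1 (1.78 ± 0.14). Of 13 T cell state genes, 6 were tested, of which Il2ra and Ikzf2 (1 and 4 counts in blood neutrophils) passed the count filter through the tumor libraries alone, so their count in 1 direction is not given. Prdm1 stood at 55.6 and 53.8 CPM in sorted tumor, against 2.34 and 2.39 CPM in blood neutrophils. In CD45+ neutrophils 5 of 14 regulators tested were higher and 4 lower than in blood neutrophils, against 25.2% and 24.9% of all genes tested. In macrophages 5 of 16 were higher and 10 lower, against 42.9% and 33.0% of all genes tested.

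In T cells, 12 of 18 other receptors, all tested, were higher and 5 lower than in blood neutrophils, against 35.3% higher and 37.5% lower of all genes tested. Genes such as Icos and Cd96, at 0 in blood neutrophils, passed the count filter through T cells alone and had to differ. Icos, a CD28 relative, stood at 812 and 747 CPM in T cells, Cd96 at 93.5 and 83.7 CPM and Tnfrsf9 at 734 and 663 CPM. Of 13 T cell state genes, 11 were higher and 2 lower in T cells, a count to which the same limit applies, led by Gzmb (granzyme B, 124 and 217 CPM), Il2ra (481 and 284 CPM) and Ikzf2 (Helios, 1196 and 1157 CPM). Against NK cells, T cells were higher in 10 and lower in 1 of 15 other receptors tested, against 9.68% higher and 7.91% lower of all genes tested, with Tnfrsf4 (321 and 283 CPM in T cells, 5.61 and 2.65 CPM in NK cells) and Btla (47.7 and 28.2 CPM in T cells, 5.61 and 0 CPM in NK cells) higher and Cd244a (-2.63 ± 0.26) lower. Between CD8 and CD4 T cells, 3 of 16 other receptors tested were higher and 6 lower in CD8 T cells, against 4.11% higher and 3.46% lower of all genes tested. Cd160 stood at 65.0 and 99.7 CPM in CD8 T cells, against 3.43 and 0 CPM in CD4 T cells (adjusted p = 2.11e-07 in edgeR's test), and the CD40 ligand gene Cd40lg at 0 and 3.32 CPM in CD8 T cells, against 41.2 and 52.1 CPM in CD4 T cells (-4.76 ± 0.93). Tnfrsf4 and Btla had passed the count filter through T cells alone, Cd160 through CD8 T cells alone and Cd40lg through CD4 T cells alone.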

How the data were processed

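The authors deposited filtered 10x matrices that hold UMI counts as whole numbers, 1 per gene and cell. The submitters' processing notes name Cell Ranger 7.1.0 and the mm10 build; 20000 cells were loaded per lane aiming at 40000 reads for each cell, per the labels' protocols. Strand handling and the annotation used in counting are not given in the sources used here. Gene positions came from GENCODE on mm10.

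The minimum was 200 genes per cell, and the share of mitochondrial UMIs could not exceed 10%. A cell took the class with the highest mean marker score (log counts per 10000 over the 95th percentile, at most 1) if at least 3 of its markers had a UMI and the next class scored at most 0.8 of it. This gave a class to 78.1% to 99.8% of kept cells per library. Cells of mixed lineage failed that ratio; Scrublet's automatic threshold marked 0% to 0.128% of a library, which is too few to have worked, so removing the highest scores at 0.8% per 1000 cells was an alternative. Thinned shares, the likeness of genes and the marker check used classes with at least 20 cells per library; summed counts had no such minimum (CD4 T cells of CD45+ library 2 numbered 19). CD8 and CD4 T cells were split by Cd8a or Cd8b1 and Cd4.

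Counts were summed per class and library, and the sums were compared by the quasi-likelihood test of edgeR 4.0.16 (glmQLFit, glmQLFTest, after filterByExpr and TMM scaling; two-sided, Benjamini-Hochberg adjusted p under 0.05 over all genes tested) in R 4.3.3 with limma 3.58.1. Comparisons with blood had the group as the only term, and those within the CD45+ libraries had the library as a block, since their classes share each library. CPM use unscaled totals. Shares were computed after thinning cells to 1000 UMIs with numpy 2.4.6, with exact 95% Clopper-Pearson intervals (scipy 1.17.1); intervals and floors cover counting error only. A gene at 0 in a group was compared with a floor of 3 counts over the group. DESeq2 1.42.0, its size factors, no count filter, a stricter gate (4 markers, ratio 0.65), Scrublet removal (scanpy 1.11.5), thinning to 2000 UMIs and leaving out each library were alternatives. Scaling by totals only, leaving out shared barcodes, and leaving out T and NK cells with phagocyte UMIs were chosen after seeing the data. Plots were drawn with matplotlib 3.10.9.

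On simulated data, the test recovered 66% of genes changed by 2-fold and 94% of those changed by 4-fold for sorted tumor against blood neutrophils (6 false of 166 calls, 13062 genes), and 59% and 97% for macrophages against neutrophils (4 false of 160 calls, 14482 genes). The simulation changed few genes, as many up as down, at a fixed spread for all genes. Far more genes were called in the data, so these rates may not carry over to it. The ratio of chi-square to its degrees of freedom between replicates was 3.50 to 80.9, above sampling noise, and each library counted as its own sample. All 10 genes are named in each comparison that counted them; of each other list, the called genes with the largest changes are named. One gene that the likeness rule picked is not reported here. The 10 genes, the other gene lists and the tests were chosen with earlier results of these data known.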

Additional observations from a re-analysis of the deposited data

Results flagged for a closer look

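The 10 genes were also counted in cells that no comparison used, and some levels above those of blood neutrophils are listed here as mean CPM of 2 libraries, without a test. A level is listed where its mean was at least 10-fold that of blood neutrophils, each library had more than 3 counts, and the exact Poisson intervals of both libraries lay above those of both blood libraries; smaller folds, such as 498 CPM of Cd80 in CD45+ monocytes, are not listed. B cells of the CD45+ libraries held 37.6 CPM of Pdcd1lg2, 869.5 CPM of Cd86 and 63.5 CPM of Ctla4. The 22 and 44 B cells of the sorted blood libraries held 130.0 CPM of Ctla4. Monocytes of the CD45+ libraries held 964 CPM of Cd86, 207 CPM of Havcr2, 10.8 CPM of Ctla4, 3.39 CPM of Cd28 and 2.17 CPM of Pdcd1. Monocytes of the sorted tumor libraries (42 and 61 cells) had 0 counts of Ctla4 and Pdcd1 in both, and 0 and 6 counts of Cd28.

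Some phagocytes were found in the libraries sorted for tumor neutrophils. Macrophages there held 849.8 CPM of Cd86, 79.3 CPM of Havcr2 and 20.4 CPM of Lag3. Microglia there held 696 CPM of Cd86, 146 CPM of Havcr2, 146 CPM of Lag3 and 3.07 CPM of Pdcd1. Monocytes there held 382 CPM of Cd274, 761 CPM of Cd86 and 288 CPM of Havcr2. Without barcodes that libraries share, 70 of 137 microglia, 88 of 115 macrophages and 56 of 61 monocytes of sorted tumor library 2 were left. Microglia of that library then held 563 CPM of Cd86, 135 CPM of Havcr2, 153 CPM of Lag3 and 3.25 CPM of Pdcd1 (3 counts), against 751, 133, 139 and 2.43 CPM with all cells. Macrophages of that library held 444 CPM of Cd86, 72.7 CPM of Havcr2 and 38.9 CPM of Lag3, against 690 CPM, 70.9 and 21.4 CPM with all cells. The 42 and 61 monocytes had 579 and 184 CPM of Cd274 in single libraries, so the mean rests on sorted tumor library 1.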

How the results depend on the processing

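Of 1274 recomputed values of the 10 genes, 1210 kept their direction and their side of the threshold, 36 lost and 13 gained a call, and 15 changed sign. The cause was not tested where none is named.

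The sign changes were mostly those of Lgals9. With totals only it was -0.14 in sorted tumor neutrophils, 0.11 in macrophages and 0.78 in microglia over blood, and 0.29 in macrophages over CD45+ neutrophils (0.12 with no count filter). Leaving out CD45+ library 1 or 2 gave 0.12 and -0.74 in CD45+ neutrophils and 0.20 and -0.35 in microglia. It was 0.01 in microglia after Scrublet removal, and -0.19 in CD8 over CD4 T cells with the stricter gate. Pdcd1lg2 in microglia over blood was -0.01 with the stricter gate and -0.27 after Scrublet removal, and 0.16 in T over NK cells without phagocyte UMIs. Havcr2 in NK cells over blood was -0.17 after Scrublet removal, 1.28 without CD45+ library 2 and -7.26 without CD45+ library 1, which leaves 0 counts. Cd80 in CD8 over CD4 T cells was 0.60 with DESeq2.

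Totals only moved the split of all calls (main counts first, higher and lower). It was 4009 and 3850 against 3199 and 4717 for sorted tumor neutrophils, 5019 and 4642 against 7006 and 2804 for microglia, 5284 and 4918 against 6912 and 3297 for dendritic cells, 4403 and 4682 against 6878 and 2500 for T cells, and 3011 and 3968 against 5130 and 2011 for NK cells. Over CD45+ neutrophils it was 4771 and 3395 against 6056 and 2698 for macrophages, 3288 and 3095 against 5645 and 1833 for microglia, and 3499 and 3342 against 5476 and 2212 for dendritic cells; for CD8 over CD4 T cells it was 269 and 226 against 190 and 277. The median of all genes moved with it, such as 0.99 against -0.05 in T cells. Of the 10 genes, 0 were then called lower in microglia, 1 in T cells and 1 in NK cells over blood.

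DESeq2 called 2423, 1221 and 1338 genes higher in macrophages, microglia and dendritic cells over CD45+ neutrophils, 1 and 2 of the 10 genes higher in macrophages and microglia, 209 higher and 205 lower in T over NK cells, and 56 and 56 in CD8 over CD4 T cells, where 0 of the 10 genes were higher. In macrophages over blood, 1 of the 10 was lower with DESeq2, its size factors or Scrublet removal. With no count filter 1 was lower in sorted tumor neutrophils. In T over NK cells, 1 was lower with size factors, the stricter gate, Scrublet removal, no shared barcodes and no phagocyte UMIs, and the last gave 313 genes higher and 284 lower.

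Same-numbered libraries of different groups did not deviate together over genes (correlations -0.0138 to 0.0427). This cannot tell whether they came from the same mice. With the replicate block, the 63 values of the 10 genes tested against blood kept their direction and their side of the threshold, with 4070 genes higher and 3899 lower in sorted tumor neutrophils. Without the replicate block, T over NK cells had 415 higher and 305 lower against 752 and 615, CD8 over CD4 T cells had 27 and 46 with 0 of the 10 genes called, and 1 of the 10 was higher in macrophages over CD45+ neutrophils.

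Leaving out 1 library gave 1323 to 2755 genes higher and 1244 to 3107 lower in CD45+ neutrophils over blood, and 1858 to 2542 and 2279 to 3710 in NK cells; the lowest values came without blood library 1. Of the 10 genes, 0 to 1 were lower in sorted tumor neutrophils, CD45+ neutrophils and macrophages, and 1 to 2 in microglia. Within the CD45+ libraries such values have no test.

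Mean shares of cells with a UMI rise with depth. Unthinned and at 2000 UMIs, sorted tumor neutrophils had 51.4% and 42.5% for Cd274, 21.1% and 13.8% for Pdcd1lg2 and 70.4% and 57.7% for Cd80; blood neutrophils had 8.45% and 5.26%, 1.25% and 0.620%, and 35.3% and 23.0%. T cells had 60.6% and 36.0% for Pdcd1, 78.3% and 50.6% for Cd28, 74.7% and 55.0% for Ctla4, 35.6% and 18.8% for Havcr2 and 29.3% and 14.9% for Lag3. CD45+ neutrophils had a median of 1623 and 2502 UMIs, and 435 of 585 and 237 of 760 were left out at 2000 UMIs.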
